A study of Mus musculus with 6 samples.

Results

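Desmosomes are the adhesive plaques that join keratinocytes to each other and anchor their keratin filaments, and 10 genes of this junction were compared between alopecic and unaffected mouse skin. The members were the desmosomal cadherins Dsg2, Dsg3, Dsg4, Dsc1, Dsc2 and Dsc3 and the plaque proteins Dsp, Jup, Pkp1 and Pkp3. Every probe set of the array with a member as its only gene symbol was taken, which gave 19 of 45037 probe sets for 8 of the 10 genes. Dsg3 and Dsg4 had no such probe set and were not analysed here. Dsg2 was read by 6 probe sets, Dsp by 3, Dsc1, Dsc2, Dsc3 and Pkp3 by 2 each, and Jup and Pkp1 by 1 each. Probe sets of 1 gene share its RNA and are not independent of each other.

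Both groups were mice of the inbred strain C3H/HeJ, in which alopecia areata, an autoimmune hair loss, can arise spontaneously. The alopecic group held affected skin of 3 mice with alopecia areata, and the unaffected group held skin of 3 mice without it, with 1 array per mouse. Age, sex, body site and hair cycle stage were not given in the sources used here. Values are log2 RMA values (a background-corrected, between-array normalised signal), so that 1 unit is a doubling. Differences were taken between arrays within a probe set. Levels of different probe sets were used to call them bright or dim, to pick the brightest and to form list means and sums.

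In a desmosome the extracellular parts of desmogleins (Dsg) and desmocollins (Dsc) of neighbouring cells bind each other. Inside the cell their tails hold plakoglobin (Jup) and plakophilins (Pkp), and these bind desmoplakin (Dsp), which reaches the keratin filaments. In skin the cadherins are known to be layered: Dsg2, Dsc2, Dsg3 and Dsc3 belong mainly to lower or follicular layers, Dsg1 and Dsc1 to upper epidermis, and Dsg4 to the hair shaft. The 6 member cadherins and the 3 mouse Dsg1 genes stand side by side on 1 chromosome in the RefSeq annotation, in the order Dsc3, Dsc2, Dsc1, Dsg1c, Dsg1a, Dsg1b, Dsg4, Dsg3 and Dsg2, with no other protein-coding gene among these 9.

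Promoters of Dsp and Jup, the plaque components that all desmosomes share and whose bright probe sets varied little among the arrays described below, were taken from RefSeq (GRCm38.p6), in whose table these 2 of the 4 plaque genes were matched. The 250 bases before the start are printed from 5′ to 3′ on the strand of the gene, with each GC box (GGGCGG on either strand) in capitals. Dsp lies at chr13:38151044-38151293 on the plus strand and Jup at chr11:100397791-100398040 on the minus strand.
Dsp: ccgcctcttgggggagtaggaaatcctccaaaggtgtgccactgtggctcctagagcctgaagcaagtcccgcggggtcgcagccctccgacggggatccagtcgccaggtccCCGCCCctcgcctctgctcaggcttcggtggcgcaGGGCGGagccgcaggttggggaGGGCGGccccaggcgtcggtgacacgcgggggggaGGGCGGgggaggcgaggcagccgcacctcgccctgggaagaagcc
Jup: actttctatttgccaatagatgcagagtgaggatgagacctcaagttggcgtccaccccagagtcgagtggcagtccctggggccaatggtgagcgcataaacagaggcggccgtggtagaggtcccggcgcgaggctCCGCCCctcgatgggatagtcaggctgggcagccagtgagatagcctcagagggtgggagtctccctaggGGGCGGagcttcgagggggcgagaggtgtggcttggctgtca
The Dsp window held 4 GC boxes and the Jup window 2, none of them overlapping, and 32.7% of 32851 promoter windows of this length held at least 1. GC content was 72.4% for Dsp and 62% for Jup, against a median of 52.4% over all windows. Neither window held the letters of an AP-1 site (TGANTCA, either strand, in 6.75% of windows) or of a TATA box (TATAAA, either strand, in 12.4%).

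One array stood apart. Of the summed squares of the deviations of all arrays from their group mean, 41.1% fell on unaffected replicate 3. Its Pearson correlations with the other arrays across probe sets, which are not independent replicates, lay between 0.928 and 0.948, against 0.969 to 0.990 for the other pairs. Follicle genes were low there: 12 hair shaft keratins averaged 5.94, against 11.77 and 12.76 in unaffected replicates 1 and 2, and 7 of the 12 lay below the lowest array median of 6.11. Many results are therefore given with and without this array, and a value given only once may also depend on it. Keratinocyte markers matched the labelled tissue, with Krt14, the keratin of basal cells, at 14.15 in alopecic and 13.67 in unaffected skin. Of 9 measured genes of an interferon gamma response list 8 rose in alopecic skin, Igtp, Gbp2, Cxcl9 and Cxcl10 among them (log2 differences of 4.40, 3.92, 6.23 and 5.23, adjusted p from 0.00519 to 0.0180 in limma). No probe set of the array passed once unaffected replicate 1 or 2 was left out. No gene passed in the lists of hair transcription factors (median difference 0.41), outer root sheath and companion layer (0.99), macrophages (0.26), muscle (0.16), fibroblasts (-0.02), adipocytes (-0.56), sebaceous gland (0.64), melanocytes (-0.64), endothelium (-0.22) or proliferation (1.62). With unaffected replicate 3 left out none passed either, and these medians became, in the same order, -0.86, 0.64, -0.14, 0.82, -0.44, -1.50, -0.10, -1.90, 0.17 and 0.56.

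None of the 19 desmosome probe sets rose or fell in alopecic skin (limma, adjusted p from 0.703 to 0.997). Over the whole array 0.142% of probe sets passed this test, 0.14% higher and 0.00222% lower. At an unadjusted p under 0.05, 2 of the 19 were higher and none lower, against 3.65% and 2.17% of all probe sets (5.82% in either direction), and both belonged to Dsg2. The log2 differences ran from -1.07 to 0.85 with a median of 0.04, beside -0.02 for all probe sets, and 12 of the 19 were above 0. Without unaffected replicate 3 none passed either (smallest adjusted p = 0.430), although 0.151% of all probe sets did, and the median became -0.11 with 13 of 19 below 0. A difference that misses the threshold with 3 mice per group does not show that the groups were alike, so 95% intervals of the fit, not adjusted for the number of probe sets, are given for the members that matter.

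**Figure D1:**
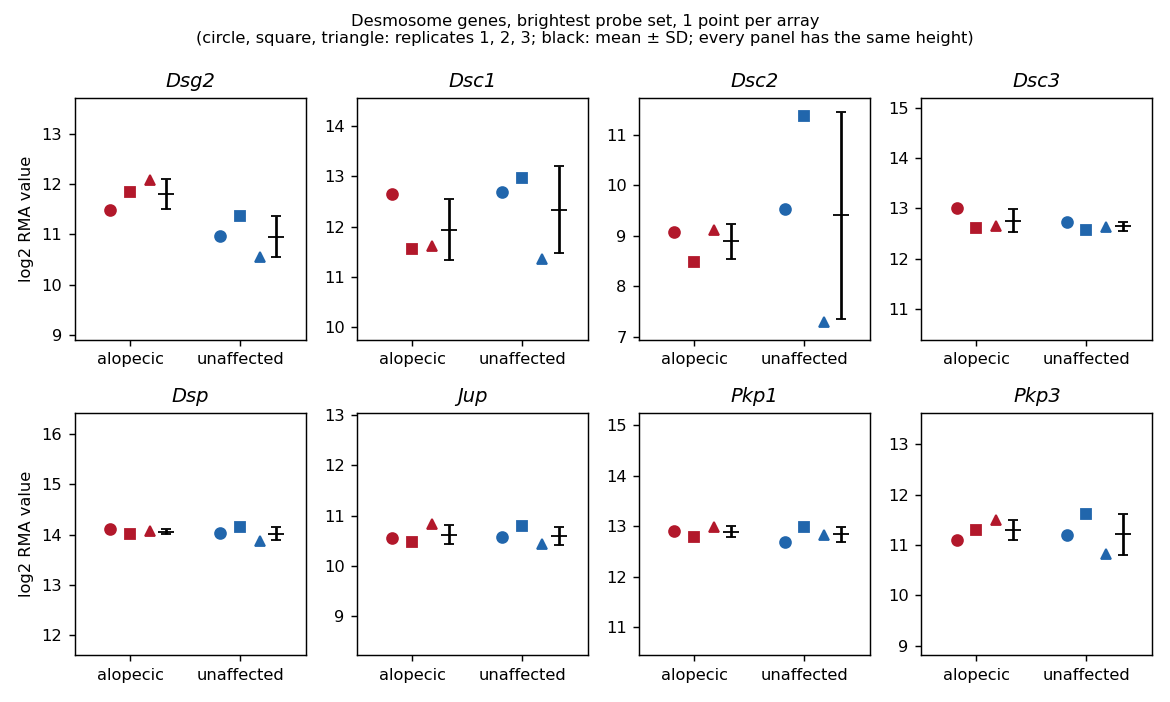
Log2 RMA value (vertical axis) of the brightest probe set of each of the 8 measured desmosome genes in alopecic (left) and unaffected (right) skin, with 1 point per array, the black bar giving mean ± SD (n = 3) and every panel covering the same height. Dsg2 was the gene whose groups did not overlap, Dsc2 and Dsc1 spread widely in unaffected skin, and Dsp, Jup, Pkp1 and Dsc3 stayed within 0.44 log2 units over all 6 arrays.

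Among the cadherins, Dsg2, the desmoglein of simple epithelia that in skin is found mainly in follicles and basal cells, was the 1 member whose brightest probe set separated the groups. Its brightest probe set, 1439476_at, read 11.48, 11.85 and 12.08 in alopecic replicates 1, 2 and 3, and 10.97, 11.36 and 10.54 in unaffected replicates 1, 2 and 3. Every alopecic array lay above every unaffected array, which held for 1 of the 19 desmosome probe sets and for 5.54% of all probe sets, while none of the 19 lay below in this way (6.33% of all). A count of 1 in 19 is near the 5.54% of all probe sets and does not set the members apart. Alopecic arrays averaged 11.80 ± 0.30 and unaffected arrays 10.96 ± 0.41 (SD, n = 3 each). This gave a log2 difference of 0.85 (SE 0.26, 95% interval 0.22 to 1.47) or 1.80-fold. It missed the threshold of the limma fit over all probe sets (adjusted p = 0.703). With unaffected replicate 3 left out the difference was 0.64 (SE 0.22, adjusted p = 0.479), and the groups still did not overlap (12.7% of all probe sets were then higher in this way).

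The other probe sets of Dsg2 did not all share this shift. Probe set 1449741_at read 7.20, 7.69 and 7.70 in alopecic skin and 6.96, 7.24 and 6.74 in unaffected skin. The difference was 0.55 (SE 0.20, adjusted p = 0.799), or 0.43 without unaffected replicate 3. For 1449740_s_at the alopecic values were 10.54, 10.95 and 11.04 and the unaffected values 10.25, 10.74 and 9.64, a difference of 0.63 (SE 0.30, adjusted p = 0.888), or 0.35 without unaffected replicate 3. In both of them unaffected replicate 2 lay just above alopecic replicate 1, so that the groups overlapped by 1 array. The 3 remaining probe sets, 1425619_s_at, 1460380_at and 1426153_a_at, differed by 0.30, 0.22 and -0.07, and the last was below the lowest array median on all 6 arrays. Once unaffected replicate 3 was left out, these 3 stood at -0.15, -0.055 and -0.27. The suffix _s_at marks probe sets whose probes can match transcripts of more than 1 gene, and _a_at those that match several transcripts of 1 gene.

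Other markers also separated the groups, some in the opposite direction to Dsg2. The basal keratins Krt5 and Krt14 each had all alopecic arrays above all unaffected ones, with log2 differences of 0.40 (SE 0.15, adjusted p = 0.830) and 0.48 (SE 0.13, adjusted p = 0.631). Krt15, a keratin of basal and follicle bulge cells, was lower in every alopecic array, at -0.86 (SE 0.25, adjusted p = 0.669). Without unaffected replicate 3, Krt5, Krt14 and Krt15 stood at 0.52, 0.39 and -0.64. Krt14 ranked all 6 arrays in the same order as the brightest Dsg2 probe set, and Krt5 and Krt15 did not. For Trp63, the other gene of the basal list, the groups overlapped (difference 0.09, SE 0.18). Of 11 markers of T and cytotoxic lymphocytes, 10 were higher in every alopecic array (6.93% of all genes) and Cd4 was lower in every one (6.12%), at -0.16 (SE 0.11). The log2 of their summed signal lay between 11.97 and 13.75 in alopecic and between 9.92 and 10.18 in unaffected skin, and Cd3g and Ccl5, the list's brightest members, differed by 1.64 and 4.80 without passing (adjusted p = 0.596 and 0.0791). None of the 11 lay below the lowest array median on every array. In unaffected replicates 1, 2 and 3, however, 5, 5 and 4 of the 11 did, against 0, 1 and 1 in alopecic replicates 1, 2 and 3. Their mean was highest in alopecic replicate 1, the alopecic array in which the brightest Dsg2 probe set was lowest. The part of these cells in the Dsg2 values was not tested, and in bulk skin a change in the number of cells of a type and a change in RNA per cell cannot be told apart.

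The 3 desmocollins differed among themselves in how much they varied. Dsc3, which is known from basal and lower spinous layers, was steady: 1434534_at read 13.01, 12.61 and 12.65 in alopecic skin and 12.74, 12.57 and 12.62 in unaffected skin. The difference was 0.11 (SE 0.14, 95% interval -0.23 to 0.46, adjusted p = 0.925), that is a fold between 0.850 and 1.38. The second Dsc3 probe set, 1427637_a_at, was dim, with 4 of 6 arrays below the lowest array median. It differed by 0.01 (SE 0.39), or by -0.15 without unaffected replicate 3. Dsc2, its neighbour on the chromosome, spanned 4.09 log2 units over the 6 arrays in 1426911_at and 4.41 in 1421156_a_at.

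Dsc2, the desmocollin shared by many epithelia, read 9.08, 8.49 and 9.11 in alopecic replicates 1, 2 and 3 with 1426911_at. In unaffected replicates 1, 2 and 3 the values were 9.54, 11.38 and 7.29. The alopecic arrays lay close together and between the extremes of the unaffected arrays, of which replicate 2 was the highest and replicate 3 the lowest of all 6. Alopecic arrays averaged 8.89 ± 0.35 and unaffected arrays 9.40 ± 2.05 (SD, n = 3 each). The log2 difference was -0.51 (SE 0.99, 95% interval -2.95 to 1.93, adjusted p = 0.945). The second probe set, 1421156_a_at, gave 7.20, 6.55 and 6.94 in alopecic and 7.90, 9.92 and 5.51 in unaffected skin, with the same 2 unaffected arrays at the ends and a difference of -0.88 (SE 1.07, adjusted p = 0.924).

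The direction of Dsc2 depended on single unaffected mice. Without unaffected replicate 3 the 2 probe sets were lower in alopecic skin, by log2 differences of -1.57 (SE 0.57) and -2.01 (SE 0.61), or 2.96-fold and 4.02-fold. Every alopecic array then lay below both remaining unaffected arrays, as it did for 13.9% of all probe sets. Both Dsc2 probe sets were lowest in the array left out, and leaving it out by itself lowers their differences. Neither passed (limma adjusted p = 0.490 and 0.430). Without unaffected replicate 2 the differences were 0.48 and 0.19 instead. In unaffected replicate 3 the probe sets lay 3.16 and 3.40 below the mean of unaffected replicates 1 and 2, or 8.97-fold and 10.5-fold.

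The follicle lists moved with Dsc2 across the arrays. The mean of 12 hair shaft keratins was 10.12, 10.06 and 10.63 in alopecic skin and 11.77, 12.76 and 5.94 in unaffected skin, and that of 9 inner root sheath genes was 11.88, 11.64 and 12.11 in alopecic and 12.93, 13.56 and 6.18 in unaffected skin. From highest to lowest, both lists and 1426911_at ranked the arrays alike: unaffected replicates 2 and 1, then alopecic replicates 3, 1 and 2, then unaffected replicate 3. The second Dsc2 probe set had alopecic replicate 1 above alopecic replicate 3. This pattern was not particular to the follicle lists: tight junction, gap junction and adipocyte means also had unaffected replicates 2 and 1 highest and unaffected replicate 3 lowest. The log2 of the summed signal lay between 14.18 and 14.84 in alopecic and between 10.08 and 16.86 in unaffected skin for the hair shaft list, and between 15.37 and 15.70 and between 11.72 and 16.88 for the sheath list. Below the lowest array median were 7 of 12 and 7 of 9 of these genes in unaffected replicate 3, and none in any other array. The brightest members, Krt33a and Krt31 of the shaft and Krt25 and Tchh of the sheath, differed by 1.09 (SE 2.50), 0.36 (SE 2.03), 2.36 (SE 2.31) and 1.57 (SE 1.74). All 4 were below 0 without unaffected replicate 3, at -1.92, -2.06, -0.44 and -0.53. At an unadjusted p under 0.05, 10 of 12 shaft and 7 of 9 sheath genes were then lower (5.25% of all genes) and none passed (smallest adjusted p over both lists 0.175). The array left out was the lowest for 12 of 12 shaft and 8 of 9 sheath genes, and leaving it out by itself lowers such differences. These counts are therefore in part set by the choice of array. The part of the follicles in the Dsc2 values was not tested.

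Of 11990 other genes whose mean lay above the lowest array median, Lpin3, Dusp2 and Tmem62 had the profile most like that of Dsc2 (Pearson r of 0.998, 0.996 and 0.996 over 6 arrays, given as a description). Lpin3 encodes a phosphatidate phosphatase and Dusp2 a phosphatase of MAP kinases. Altogether 6 genes had an r over 0.99 and 106 an r over 0.95. In Dsc2 and in the 3 named genes, unaffected replicate 2 was the highest and unaffected replicate 3 the lowest array. This follows from choosing the 3 genes by their likeness to Dsc2.

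**Figure D2:**
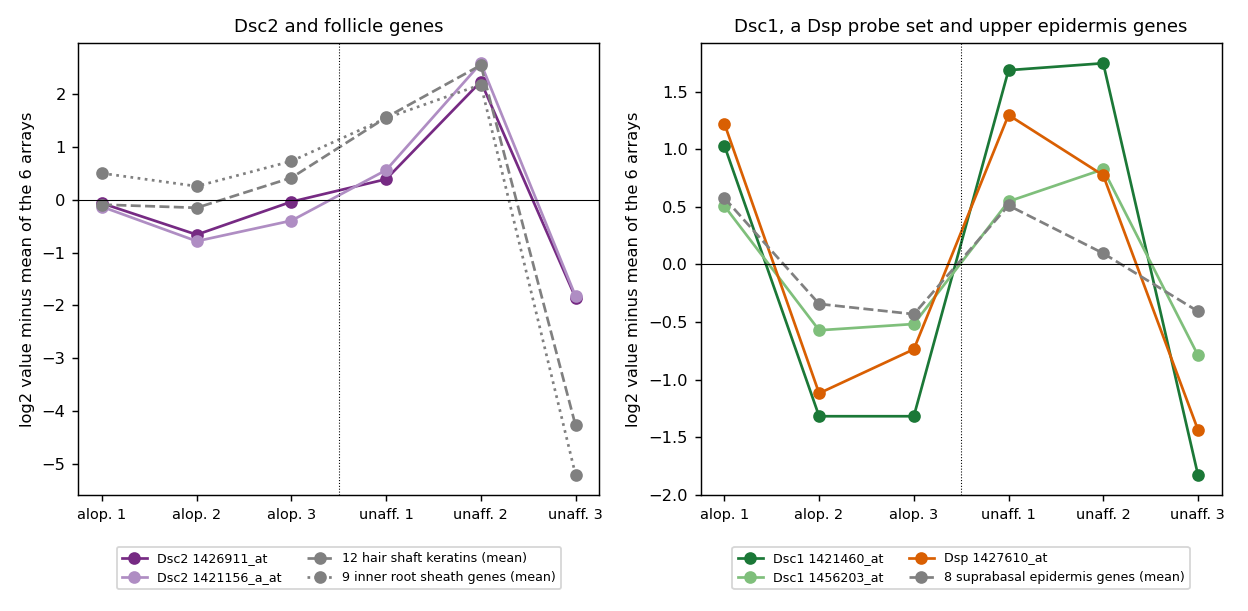
Log2 value minus the mean of the 6 arrays (vertical axis) in alopecic arrays 1 to 3 and unaffected arrays 1 to 3 (horizontal axis). The left panel shows both Dsc2 probe sets with the mean of hair shaft keratins and of inner root sheath genes. The right panel, on a finer scale, shows both Dsc1 probe sets and 1427610_at of Dsp with the mean of suprabasal epidermis genes. Dsc2, Dsc1 and the follicle lists all peaked in unaffected replicate 2 and were lowest in unaffected replicate 3. Dsc1 was also high in alopecic replicate 1 and unaffected replicate 1.

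Dsc1, the desmocollin of the upper epidermis, was like Dsc2 highest in unaffected replicate 2 and lowest in unaffected replicate 3 with both probe sets. Probe set 1456203_at read 12.64, 11.56 and 11.62 in alopecic skin and 12.68, 12.96 and 11.35 in unaffected skin. The dimmer 1421460_at gave 8.44, 6.09 and 6.09 in alopecic and 9.09, 9.16 and 5.58 in unaffected skin. In both, alopecic replicate 1 and unaffected replicates 1 and 2 were high and the other 3 arrays low, so that each group held high and low mice. The log2 differences were -0.39 (SE 0.51, 95% interval -1.64 to 0.86, adjusted p = 0.926) and -1.07 (SE 1.17, adjusted p = 0.920).

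Without unaffected replicate 3, the lowest array for both probe sets, the Dsc1 differences were -0.88 (SE 0.36, adjusted p = 0.544) and -2.25 (SE 0.77, adjusted p = 0.475), and all 3 alopecic arrays then lay below both unaffected arrays (13.9% of all probe sets). Without unaffected replicate 2 they were -0.073 and -0.47 instead. The low values of 1421460_at lay below the lowest array median in 3 arrays, where RMA compresses differences. The mean of 8 suprabasal epidermis genes was 12.31, 11.39 and 11.30 in alopecic and 12.24, 11.83 and 11.32 in unaffected skin. As a mean it was also highest in alopecic replicate 1 and unaffected replicates 1 and 2. The log2 of its summed signal lay between 15.65 and 16.59 in alopecic and between 16.10 and 16.41 in unaffected skin. The mean does not stand for each gene: 2 of the 8 were lowest in unaffected replicate 3 and 1 was highest in unaffected replicate 2, the extremes of Dsc1. Of these genes 6 were lower and 2 higher in alopecic skin, none passed, and Krt2 alone was below the lowest array median on every array. The brightest, Sbsn and Krt10, differed by -0.20 (SE 0.21) and -0.30 (SE 0.32). The part of the upper epidermis in the Dsc1 values was not tested.

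Among the plaque proteins, Jup, Pkp1 and the bright probe sets of Dsp spanned at most 0.41 log2 units over the 6 arrays. Both Pkp3 probe sets and the third Dsp probe set, 1427610_at, spanned more. Dsp, the linker to keratin, read 14.10, 14.00 and 14.07 in alopecic and 14.03, 14.14 and 13.88 in unaffected skin with 1435494_s_at. A second probe set, 1435493_at, read 13.23, 13.19 and 13.31 in alopecic and 13.05, 13.25 and 13.25 in unaffected skin. The groups overlapped in both, and the differences were 0.04 (SE 0.11, 95% interval -0.22 to 0.31, adjusted p = 0.961) and 0.06 (SE 0.11, 95% interval -0.20 to 0.32, adjusted p = 0.942). These signals lie near the top of the array's range of 3.07 to 14.92, where a bright probe set can respond less than in proportion.

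The third Dsp probe set, 1427610_at, was less bright but above the lowest array median on all 6 arrays, and did not share this steadiness. It read 8.98, 6.64 and 7.02 in alopecic and 9.06, 8.53 and 6.32 in unaffected skin, a span of 2.73 log2 units against 0.26 in each of the other Dsp probe sets. The high arrays were those in which Dsc1 was high, and the groups overlapped (difference -0.42, SE 0.92, adjusted p = 0.953). It stood at -1.25 (SE 0.73, adjusted p = 0.675) without unaffected replicate 3, at 0.12 without unaffected replicate 1 and at -0.14 without unaffected replicate 2. The 3 probe sets of Dsp therefore disagree, and which transcripts each of them reads was not analysed here.

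Jup, plakoglobin, serves both desmosomes and adherens junctions. Its only probe set, 1426873_s_at, is of the kind that can match transcripts of more than 1 gene. Jup read 10.55, 10.48 and 10.84 in alopecic and 10.57, 10.80 and 10.43 in unaffected skin. Its difference was 0.02 (SE 0.15, 95% interval -0.35 to 0.40, adjusted p = 0.986). Pkp1, the plakophilin of suprabasal layers, read 12.90, 12.79 and 12.99 in alopecic and 12.69, 12.99 and 12.83 in unaffected skin, a difference of 0.06 (SE 0.12, 95% interval -0.24 to 0.35, adjusted p = 0.953). In both genes the arrays of the groups were interleaved. For these 2 genes the intervals correspond to folds of 0.785 to 1.32 and 0.846 to 1.28. With unaffected replicate 3 left out, Jup stood at -0.06 and Pkp1 at 0.05, and bright probe sets of Dsp at -0.03 and 0.09 and of Dsc3 at 0.10.

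Pkp3, a plakophilin found through all living layers of the epidermis, varied more than Pkp1. Probe set 1418831_at read 11.10, 11.30 and 11.49 in alopecic and 11.20, 11.62 and 10.81 in unaffected skin, a difference of 0.08 (SE 0.23, 95% interval -0.48 to 0.65, adjusted p = 0.964). The dimmer 1418832_at read 9.26, 8.72 and 9.02 in alopecic and 9.47, 9.77 and 8.42 in unaffected skin, a difference of -0.22 (SE 0.37, adjusted p = 0.939). In each, unaffected replicate 2 was the highest and unaffected replicate 3 the lowest of the 6 arrays. Without unaffected replicate 3 the second probe set lay lower in every alopecic array (13.9% of all probe sets), at -0.62 (SE 0.20, adjusted p = 0.451), while the first stood at -0.11 (SE 0.19, adjusted p = 0.896).

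**Figure D3:**
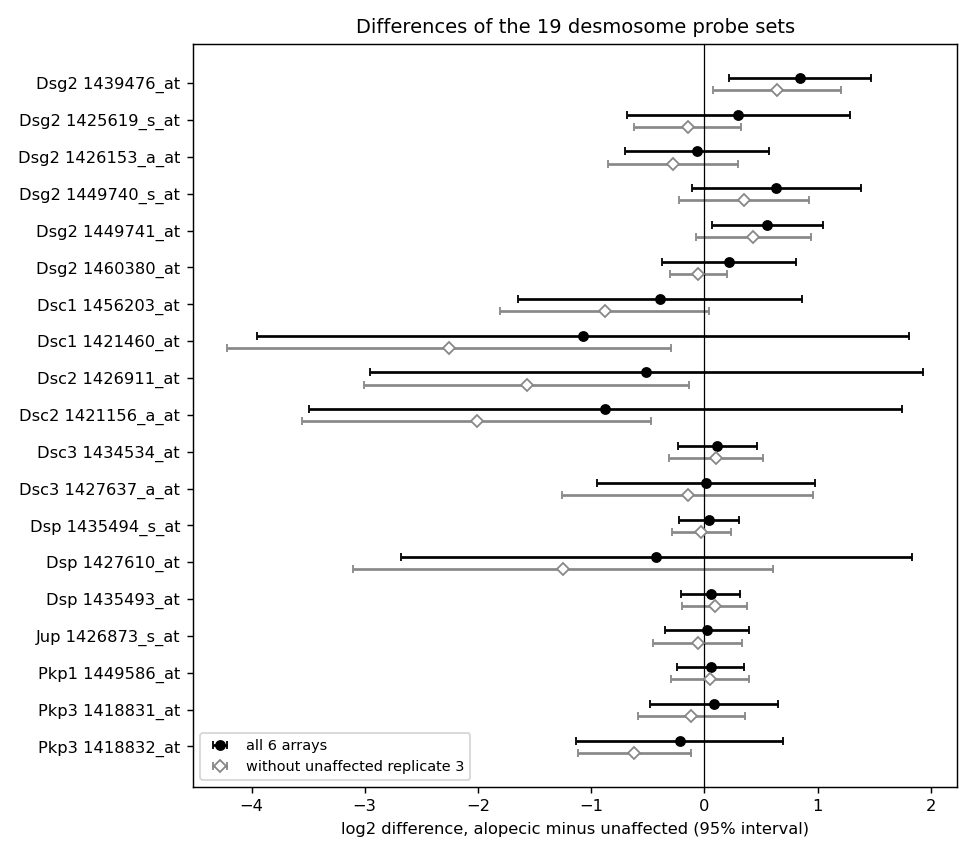
Log2 difference, alopecic minus unaffected, with its 95% interval (horizontal axis) for the 19 desmosome probe sets, over all 6 arrays (filled circles) and without unaffected replicate 3 (open diamonds). The brightest Dsg2 probe set lay above 0 in both. The Dsc1 and Dsc2 probe sets and 1427610_at of Dsp had the widest intervals over all arrays. The intervals of Jup, Pkp1, bright Dsp and bright Dsc3 probe sets were narrow and included 0.

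Across the 19 probe sets, 15 had their lowest value in unaffected replicate 3, which held for 24.9% of all probe sets, and the exceptions were both Dsc3 probe sets, Pkp1 and 1435493_at of Dsp. Their median in that array lay 0.62 below the mean of unaffected replicates 1 and 2, beside 0.02 above it for all probe sets. The SD was larger in unaffected than in alopecic skin for 15 of the 19, and for 64.4% of all probe sets. Without that array, 5 of 19 lay lower in every alopecic array (13.9% of all probe sets), namely both of Dsc1, both of Dsc2 and 1418832_at of Pkp3, and 1 lay higher (12.7%), the brightest of Dsg2. At an unadjusted p under 0.05 the counts without it were 4 lower (4.43% of all probe sets) and 1 higher (5.02%). As 15 of the 19 were lowest in that array, leaving it out by itself lowers their differences.

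Other genes of the desmosome and the plakins bound to it were measured for 9 of 10 listed genes, and none rose or fell (median log2 difference -0.13, with 6 lower). By brightest probe set, 0.231% of all 18193 genes passed. The upper epidermal cadherins Dsg1a and Dsg1b differed by -0.45 (SE 0.35) and 0.14 (SE 0.31). Ppl and Evpl, plakins that are built into the cornified envelope, stood at -1.01 (SE 0.44, adjusted p = 0.874) and -0.44 (SE 0.36), and Cdsn, the corneodesmosome glycoprotein, at -1.10 (SE 0.80). Evpl, without unaffected replicate 3, was at -0.83 (SE 0.19, adjusted p = 0.312) with every alopecic array below both unaffected ones (14% of all genes), as was Ppl at -1.20, while Cdsn was at -1.63, Dsg1a at -0.67 and Dsg1b at -0.14. Ppl read 11.18, 9.72 and 9.74 in alopecic and 11.37, 11.46 and 10.86 in unaffected skin, and alopecic replicate 1 was again with the unaffected arrays. Perp, a tetraspan membrane protein of desmosomes, differed by -0.13 (SE 0.11), the plakophilins Pkp2 and Pkp4 by 0.09 (SE 0.42) and 0.07 (SE 0.23), and Pnn, a nuclear protein also described at desmosomes, by -0.02 (SE 0.22). Without that array these 4 stood at -0.14, -0.11, 0.16 and 0.17.

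The other junctions of keratinocytes also held no gene that rose or fell. Over 39 junction genes outside the members the smallest adjusted p was 0.596, the median difference -0.02 beside -0.01 for all genes, and 1 had an unadjusted p under 0.05 (7.66% of all genes). Without unaffected replicate 3 none passed either (smallest adjusted p = 0.0789, for Nectin3, a nectin of adherens junctions, at -1.39), and the median was -0.12. That array held the lowest value for 19 of the 39 (29.1% of all genes), and leaving it out by itself lowers the difference of such a gene. At an unadjusted p under 0.05 there were then 7 lower and 1 higher (5.25% and 5.88% of all genes), and 11 of the 39 lay lower in every alopecic array (14% of all genes). The gene that had such a p over all arrays was Cdh1, E-cadherin of the adherens junction, which averaged 12.92 ± 0.01 over alopecic arrays and 12.59 ± 0.05 over unaffected arrays (SD, n = 3 each). Its groups did not overlap (6.93% of all genes were higher in this way), and the difference was 0.33 (SE 0.09), or 0.35 without unaffected replicate 3. The 12 adherens junction genes, Jup included, had a median of 0.12. Leaving out unaffected replicate 3 turned it to -0.05, and 8 of the 12 were then lower. The brightest, Ctnnb1 and Ctnna1, the beta and alpha catenins, differed by 0.07 (SE 0.17) and 0.23 (SE 0.14), or by -0.10 and 0.15 without that array.

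Hemidesmosome genes, which fix basal cells to the basement membrane, had a median of -0.20 over 8 genes (0.17 without unaffected replicate 3), with Dst at -0.49 (SE 0.35) and Col17a1 at -0.47 (SE 0.34), or -0.17 and -0.12 without that array. The mean of this list was highest in unaffected replicate 3, at 11.82 against 10.92 in each of unaffected replicates 1 and 2, whereas the mean of the desmosome members, by brightest probe set, was lowest there, at 11.22 against 11.80 and 12.23. Tight junction genes had a median of -0.10 over 7 genes (-0.34 without that array), with the claudin Cldn1 at 0.14 (SE 0.38) and Tjp1 at -0.10 (SE 0.22), or -0.26 and -0.34 without it. Gap junction genes had a median of 0.45 over 4 genes (-0.68 without that array). The connexin gene Gjb2 read 12.22, 12.33 and 13.03 in alopecic and 12.71, 13.20 and 6.02 in unaffected skin, so that 1 mouse set its difference of 1.88 (SE 1.93), and Gja1 differed by 0.42 (SE 0.44). Without that mouse they stood at -0.43 and -0.06.

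**Figure D4:**
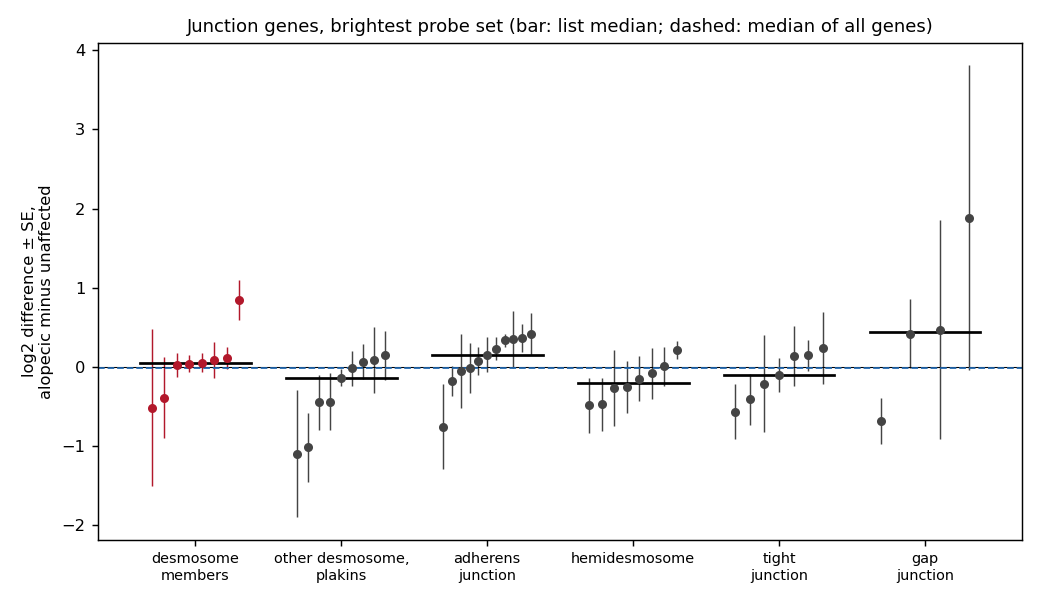
Log2 difference ± SE, alopecic minus unaffected (vertical axis), by brightest probe set for each measured gene of 6 junction lists (horizontal axis), with the list median as a bar and the median of all genes dashed. Jup is drawn with the desmosome members only, and the adherens junction bar leaves it out. Among the members Dsg2 stood highest at 0.85, and the largest value, with the widest error, was that of Gjb2 at 1.88.

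Proteases and inhibitors that act on desmosomes during shedding of the cornified layer were examined last. Of 9 measured genes none rose or fell (median 0.46, -0.16 without unaffected replicate 3). Cst6, an inhibitor of cysteine proteases, read 14.68, 12.67 and 14.67 in alopecic and 13.93, 14.00 and 12.50 in unaffected skin, a difference of 0.52 (SE 0.69). Its low arrays were alopecic replicate 2 and unaffected replicate 3. Ctsl, a lysosomal cysteine protease, differed by -0.53 (SE 0.62). These 2 genes, without unaffected replicate 3, stood at 0.04 and -0.91.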

How the data were processed

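Total RNA of skin was measured on 1 oligonucleotide array per mouse, 3 mice per group. Each probe set has a log2 value as deposited by the authors, and the submitters' processing notes name RMA; its version and the genome build are not stated there. The values were used as deposited. Of 45101 probe sets, 64 controls were left out, and the platform annotation gave 1 symbol for 34945, several for 932 and none for 9160; symbols were updated through RefSeq gene identifiers for 34741. An array has no read depth, and 3 arrays per group limit the precision. RMA compresses differences of dim probe sets.

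All 45037 probe sets were fitted with limma 3.58.1 under R 4.3.3 (moderated test after lmFit and eBayes, two-sided, alopecic minus unaffected, Benjamini-Hochberg over all, threshold 0.05), after a test on simulated data. "Rose" and "fell" mean past that threshold. Other genes are represented by their brightest probe set (mean over 6 arrays). The members and 22 further gene lists (171 entries, 156 matched) were chosen with earlier results of these data known; they are described by counts and medians. Named were all members, all genes of the other desmosome list, and, for lists described gene by gene, up to 4 past the threshold or the 2 brightest, plus 3 genes most like each member whose brightest probe set spanned over 2 log2 units. Cdh1, Nectin3, Cd4, Krt15, Trp63 and Krt2 were singled out after their values were seen. In all, 13 alternatives were run.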

Additional observations from a re-analysis of the deposited data

How the results depend on the processing

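None of the 19 desmosome probe sets and none of the 39 other junction genes passed in limma under any of the 13 alternatives, with 0 to 6 and 0 to 10 of them at an unadjusted p under 0.05. The count over the whole array, 64, was 187 with array weights, 0 with the replicate block and between 0 and 68 with 1 array left out (0 without unaffected replicate 1 or 2, 68 without unaffected replicate 3, and 20, 2 and 9 without alopecic replicates 1, 2 and 3). The replicate numbers name different mice. Correlations of same-numbered deviations were -0.10, -0.12 and -0.29, and those of differently numbered arrays ran from -0.14 to 0.35. With 3 arrays per group such correlations cannot decide whether same-numbered arrays were matched in some way. Of the 120 single differences under other settings 4 changed sign: 1427637_a_at of Dsc3 was -0.0026 with median centring, and with array weights 1425619_s_at of Dsg2 was -0.033, 1434534_at of Dsc3 -0.00083 and 1427637_a_at -0.47. With 1 array left out, 21 of 114 changed sign. The ranges were -0.15 to 0.62 (1425619_s_at), -0.27 to 0.13 (1426153_a_at) and -0.055 to 0.37 (1460380_at) for Dsg2. For Dsc2 they were -1.57 to 0.48 (1426911_at) and -2.01 to 0.19 (1421156_a_at), and for Dsc3 -0.015 to 0.19 (1434534_at) and -0.32 to 0.33 (1427637_a_at). For Dsp they were -0.026 to 0.10 (1435494_s_at), -1.25 to 0.12 (1427610_at) and -0.010 to 0.091 (1435493_at), for Jup -0.085 to 0.12, for Pkp1 -0.017 to 0.13, and for Pkp3 -0.11 to 0.29 (1418831_at) and -0.62 to 0.059 (1418832_at). The differences of 1439476_at, 1449740_s_at and 1449741_at of Dsg2 stayed above 0 and both of Dsc1 below 0 (-0.88 to -0.073 for 1456203_at and -2.25 to -0.47 for 1421460_at with 1 array left out) in each of these 6 fits and in the other alternatives that held them. Fewer arrays enter these fits; other causes of the changes were not tested. Probe sets near background limit what can be read from dim members.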
